A study of Mus musculus with 8 samples.

Results

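The genes described here are 8 imprinted genes that control growth, Igf2, H19, Igf2r, Phlda2, Kcnq1ot1, Kcnq1, Ascl2 and Grb10, of 26226 genes in all. They were chosen by name, as the growth genes of distal chromosome 7 and their partners on chromosomes 17 and 11. Trimethylation of histone H3 at lysine 4 (H3K4me3) is a mark of active and poised promoters. For each gene its tags were counted within 1 kb of the transcription start site in 4 kinds of cells. Tags of input chromatin, which was sequenced without an antibody, were counted beside them. Airn, a noncoding RNA whose start lies inside Igf2r, is given beside them.

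All cells had the 129S6/SvEvTac background. The wild-type (wt) mouse embryonic stem cells (mESCs) were of the line TC-1. The menin-null mESCs were of the line 3.2N, in which Men1 is knocked out. Men1 encodes menin, a subunit of complexes that place H3K4me3. Both lines were grown on irradiated feeder fibroblasts with LIF and were then freed of feeders before use, and pancreatic islet-like endocrine cells (PILECs) were differentiated in vitro from each line. The 4 kinds of cells are wt mESCs, menin-null mESCs, wt PILECs and menin-null PILECs, and each gave 1 H3K4me3 library and 1 input library. With 1 library per condition and 1 line per genotype, no difference given here has a replicate check or a test across samples, and genotype, line and library cannot be told apart.

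The H3K4me3 libraries held 2432377 to 18773635 tags and the input libraries 3744616 to 19016697, with the PILECs sequenced more deeply than the mESCs. Over Men1 exons 3 to 8 (chr19:6336725-6338961), 17 input tags were found in wt mESCs and 22 in wt PILECs, and 0 in both menin-null inputs, where a count of 0 allows up to 3 tags. All 7 genes listed as markers of pluripotent cells were marked by H3K4me3 over input in both mESC libraries and 2 of 7 in each PILEC library, with summed levels of 285 and 332 RPM (tags per 1000000 tags of the library) in mESCs and 38.9 and 39.8 RPM in PILECs. Of 10 islet and endoderm genes, 6 and 3 were marked in wt and menin-null mESCs and 4 in each PILEC library, with summed levels of 44.4, 37.2, 27.2 and 34.2 RPM in this order. In both PILEC libraries the regulators Neurod1, Nkx2-2, Nkx6-1 and Foxa2 were marked, while the islet hormone genes Ins1, Ins2, Gcg and Iapp, and Pdx1 and Sox17, were not. Of 7 fibroblast genes, 6 were marked in each mESC library and all 7 in each PILEC library, with summed levels of 99.1 to 124 RPM. All 5 neural genes that could be placed were marked in every library, at 85.1 and 110 RPM in mESCs and 133 and 129 RPM in PILECs. None of 5 liver and yolk sac genes was marked anywhere, and 2 of 5 muscle genes were marked in mESCs and 0 in PILECs. The part of other cell types in the results was not tested. In such bulk samples, fewer cells that carry a mark and less mark per cell cannot be told apart.

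At an imprinted gene the copies inherited from the mother and the father differ in activity, because a control region carries DNA methylation on only one of them. On distal chromosome 7, the control region upstream of H19 binds the insulator protein CTCF on the maternal copy and so sets Igf2 against H19, while a separate control region inside Kcnq1 holds the promoter of the noncoding RNA Kcnq1ot1, which silences Kcnq1, Phlda2 and Ascl2 on the paternal copy. On chromosome 17 the noncoding RNA Airn silences the paternal copy of Igf2r in the same way, and Grb10 on chromosome 11 uses separate promoters on the maternal and the paternal copies. H3K4me3 is generally found on the active copy of such promoters, but poised promoters that are silent can carry it too. The tags here were not assigned to a parental copy, so each level is a sum over both.

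The promoter sequences are shown because the starts differ in their content of CpG, the pair of bases at which DNA is methylated. Each sequence is the reference sequence of RefSeq (promoter table of build GRCm38.p6) for the 250 bases upstream of the RefSeq start, found once without a mismatch in mm9, with mm9 coordinates. Of the 9 genes looked for, 7 had an entry. Capitals mark CpG pairs.

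Grb10 first start, chr11:11937424-11937673 (minus strand): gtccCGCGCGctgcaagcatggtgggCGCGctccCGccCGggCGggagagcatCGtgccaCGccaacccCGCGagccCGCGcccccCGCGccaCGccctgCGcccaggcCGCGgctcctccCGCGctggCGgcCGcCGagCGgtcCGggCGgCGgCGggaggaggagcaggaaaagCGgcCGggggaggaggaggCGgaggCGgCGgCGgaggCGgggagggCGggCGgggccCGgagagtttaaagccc
Igf2r, chr17:12962573-12962822 (minus strand): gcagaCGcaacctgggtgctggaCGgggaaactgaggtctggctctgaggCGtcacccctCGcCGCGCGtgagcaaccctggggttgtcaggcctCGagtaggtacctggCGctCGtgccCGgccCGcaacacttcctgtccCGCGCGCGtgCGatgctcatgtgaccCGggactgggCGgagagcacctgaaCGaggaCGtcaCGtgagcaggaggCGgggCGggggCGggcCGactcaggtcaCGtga
Igf2 second start, chr7:149843402-149843651 (minus strand): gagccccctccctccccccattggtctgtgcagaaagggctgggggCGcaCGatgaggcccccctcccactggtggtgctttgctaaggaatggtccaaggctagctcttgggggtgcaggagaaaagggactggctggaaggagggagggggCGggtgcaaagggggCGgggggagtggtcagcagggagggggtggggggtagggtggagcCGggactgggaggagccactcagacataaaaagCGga
Airn, chr17:12933927-12934176 (plus strand): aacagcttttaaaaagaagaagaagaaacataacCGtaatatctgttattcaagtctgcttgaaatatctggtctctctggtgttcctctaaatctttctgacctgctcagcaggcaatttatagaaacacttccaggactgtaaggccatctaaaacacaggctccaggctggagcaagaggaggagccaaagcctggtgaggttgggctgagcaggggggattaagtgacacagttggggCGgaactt

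The first start of Grb10 held 40 CpG pairs in these 250 bases, a number that 1.31% of 32851 promoters in the table reached, and Igf2r held 27, which 8.56% reached. The second start of Igf2 held 6, equal to the median of the table, and Airn held 2, which 81.2% reached. In the wider windows used for the tag counts, within 1 kb of the start, the first start of Grb10 held 222 CpG pairs, which 0.484% of the windows of all genes reached, and its second start 159. Igf2 held 147, Phlda2 128, Ascl2 114, Kcnq1 102, Airn 83, Kcnq1ot1 78 and H19 49, with Igf2r between Phlda2 and Ascl2, beside a median of 59 over all genes. Of the 8 genes, H19 was below that median at its main start.

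Kcnq1ot1 and Ascl2 are shown because their upstream bases share a repeated motif. Capitals mark CCAAT or its reverse complement ATTGG.

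Kcnq1ot1, chr7:150482453-150482702 (minus strand): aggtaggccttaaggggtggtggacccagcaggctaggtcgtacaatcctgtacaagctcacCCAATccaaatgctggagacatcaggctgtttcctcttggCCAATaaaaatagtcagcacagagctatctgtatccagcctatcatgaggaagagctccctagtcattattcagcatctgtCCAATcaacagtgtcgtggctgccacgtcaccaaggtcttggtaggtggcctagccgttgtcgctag
Ascl2, chr7:150155170-150155419 (minus strand): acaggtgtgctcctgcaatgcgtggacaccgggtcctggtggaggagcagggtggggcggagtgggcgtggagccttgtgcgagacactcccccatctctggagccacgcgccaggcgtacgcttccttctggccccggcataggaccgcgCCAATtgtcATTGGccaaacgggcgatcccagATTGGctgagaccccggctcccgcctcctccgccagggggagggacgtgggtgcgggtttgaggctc

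Each of these 2 sequences held 3 such boxes on both strands together, which 2.79% of the promoters in the table reached, while 33.8% held at least 1. Of the 4 sequences printed before them, that of the second Igf2 start held 1 and the others 0. A match of letters is a description and not a site of binding.

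The ligand of the group is Igf2, insulin-like growth factor 2, a fetal growth factor expressed from the paternal copy. Its main start (chr7:149844709, minus strand, exon 1 of 4) had 22 tags in wt and 39 in menin-null mESCs, and 261 in wt and 254 in menin-null PILECs. Scaled to the library, these were levels of 9.04 RPM (95% interval 5.67 to 13.7), 11.1 RPM (7.89 to 15.2), 13.9 RPM (12.3 to 15.7) and 14.4 RPM (12.7 to 16.2), beside input levels of 4.0, 2.67, 0.578 and 0.828 RPM. The intervals of all 4 levels overlapped. All intervals in the text are exact and cover counting error only, and reads copied by PCR are not independent molecules. Over input, Igf2 was marked by 2.26-fold (1.15 to 4.53) in wt mESCs, the lowest ratio at which any of the 8 genes was called marked at its main start, and by 24.0-fold (13.2 to 48.7) in wt PILECs. Counted within 0.5 or 2 kb of the start, it was not marked in wt mESCs.

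The split of the H3K4me3 tags around the main start of Igf2 differed between the stages by more than counting error, but in each library its interval overlapped that of the input. Downstream of the main start lay 4 of 22 tags in wt mESCs, or 18.2% (5.19% to 40.3%), and 4 of 39 in menin-null mESCs, or 10.3% (2.87% to 24.2%). In wt PILECs 132 of 261 lay downstream, or 50.6% (44.3% to 56.8%), and in those without menin 130 of 254, or 51.2% (44.9% to 57.5%). The input split ran the same way on few tags, with 35.3% (14.2% to 61.7%) and 30% (6.67% to 65.2%) downstream in wt and menin-null mESCs and 72.7% (39.0% to 94.0%) and 60% (32.3% to 83.7%) in the PILECs. The second start (chr7:149843401, inside intron 1 of the long transcripts) had 5 and 8 tags in mESCs, not marked over input, and 192 and 174 in PILECs, or 10.2 and 9.84 RPM. Between the stages its log2 ratio was 2.06 (1.07 to 3.95) in wt cells and 1.95 (1.10 to 3.35) in menin-null cells. Its window overlaps that of the main start, so part of these tags is counted at both. A start further upstream (chr7:149847110, inside intron 1 of the antisense transcript Igf2as) had 9 and 28 tags in wt and menin-null mESCs, a log2 ratio of 1.004 (-0.02 to 2.37) that just passed 2-fold with an interval including 0, and 63 and 76 in the PILECs. The most upstream start (chr7:149852721) had 3, 0, 9 and 11 tags and was not marked in any library. In both genotypes the mESC tags lay mostly upstream of the main start, and the second start was marked in PILECs and not in mESCs. The start of Igf2os (chr7:149845617), another name of the antisense gene Igf2as, lies inside the window of the main start, on its upstream side. The window of Igf2os had 27 and 48 tags in wt and menin-null mESCs, so tags of the 2 starts cannot be told apart.

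H19 is the maternally expressed noncoding RNA next to Igf2 and a brake on growth. At its main start (chr7:149762815, the annotated start with the most tags, inside an exon of longer H19 transcripts) 5 and 4 tags were counted in wt and menin-null mESCs, and 103 and 124 in the wt and menin-null PILECs. These were levels of 2.06 RPM (0.667 to 4.8), 1.14 RPM (0.310 to 2.91), 5.49 RPM (4.48 to 6.65) and 7.01 RPM (5.83 to 8.36), beside 1.65, 1.34, 0.631 and 0.993 RPM in input. In mESCs H19 could thus not be told from input at this depth, at 1.25-fold (0.312 to 4.57) in wt and 0.852-fold (0.169 to 3.96) in menin-null cells. It was 8.69-fold (4.77 to 17.4) and 7.06-fold (4.29 to 12.3) over input in PILECs. At the other start, near the 5′ end of the gene (chr7:149764000), the counts were 4, 4, 66 and 71, with 84.8% (73.9% to 92.5%) and 90.1% (80.7% to 95.9%) of the PILEC tags downstream of it, toward the main start. The windows of the 2 starts overlap.

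The control region of Igf2 and H19, taken as 2 to 4 kb upstream of the 5′ end of the H19 annotation (chr7:149766048-149768048), had 3 tags in wt and 7 in menin-null mESCs. In PILECs the region had 81 tags in wt and 54 in menin-null cells. The PILEC levels of 4.31 RPM (3.43 to 5.36) and 3.05 RPM (2.29 to 3.98) were 5.47-fold (3.13 to 10.2) and 2.52-fold (1.51 to 4.34) over input, so this region was marked in PILECs of both genotypes. In mESCs the region could not be told from input at this depth, at 1.75-fold in wt and 1.49-fold in menin-null cells. The interval of each of these ratios included the PILEC ratio of the same genotype. Between the stages the log2 ratio of the region was 1.41 (0.21 to 4.11) in wt cells. In menin-null cells it was 0.45, with an interval that included 0, so no gain of the mark could be shown there. The sequence of the region is described because it holds CTCF sites. A search for the core of the CTCF sites, with any base allowed at 2 positions, on both strands of mm9 found 3 matches there and 0 in the windows around the starts of all 8 genes and Airn. Of 26226 windows of the same length around gene starts, 30 held a match, or 0.114%. The region was searched because it holds CTCF sites, so its 3 matches are a description and not a test of enrichment. The capitals below are the whole match.

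Site 1, chr7:149766214-149766227 (minus strand): CCGCGTGGTGGCAG
Site 2, chr7:149766669-149766682 (minus strand): CCGCGCGGTGGCAG
Site 3, chr7:149767939-149767952 (minus strand): CCGCGTGGTGGCAG

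These lie 2166, 2621 and 3891 bases upstream of the 5′ end of the H19 annotation. In the plot of tags around each start, the PILEC tags of the region form a separate peak upstream of H19.

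**Figure D1:**
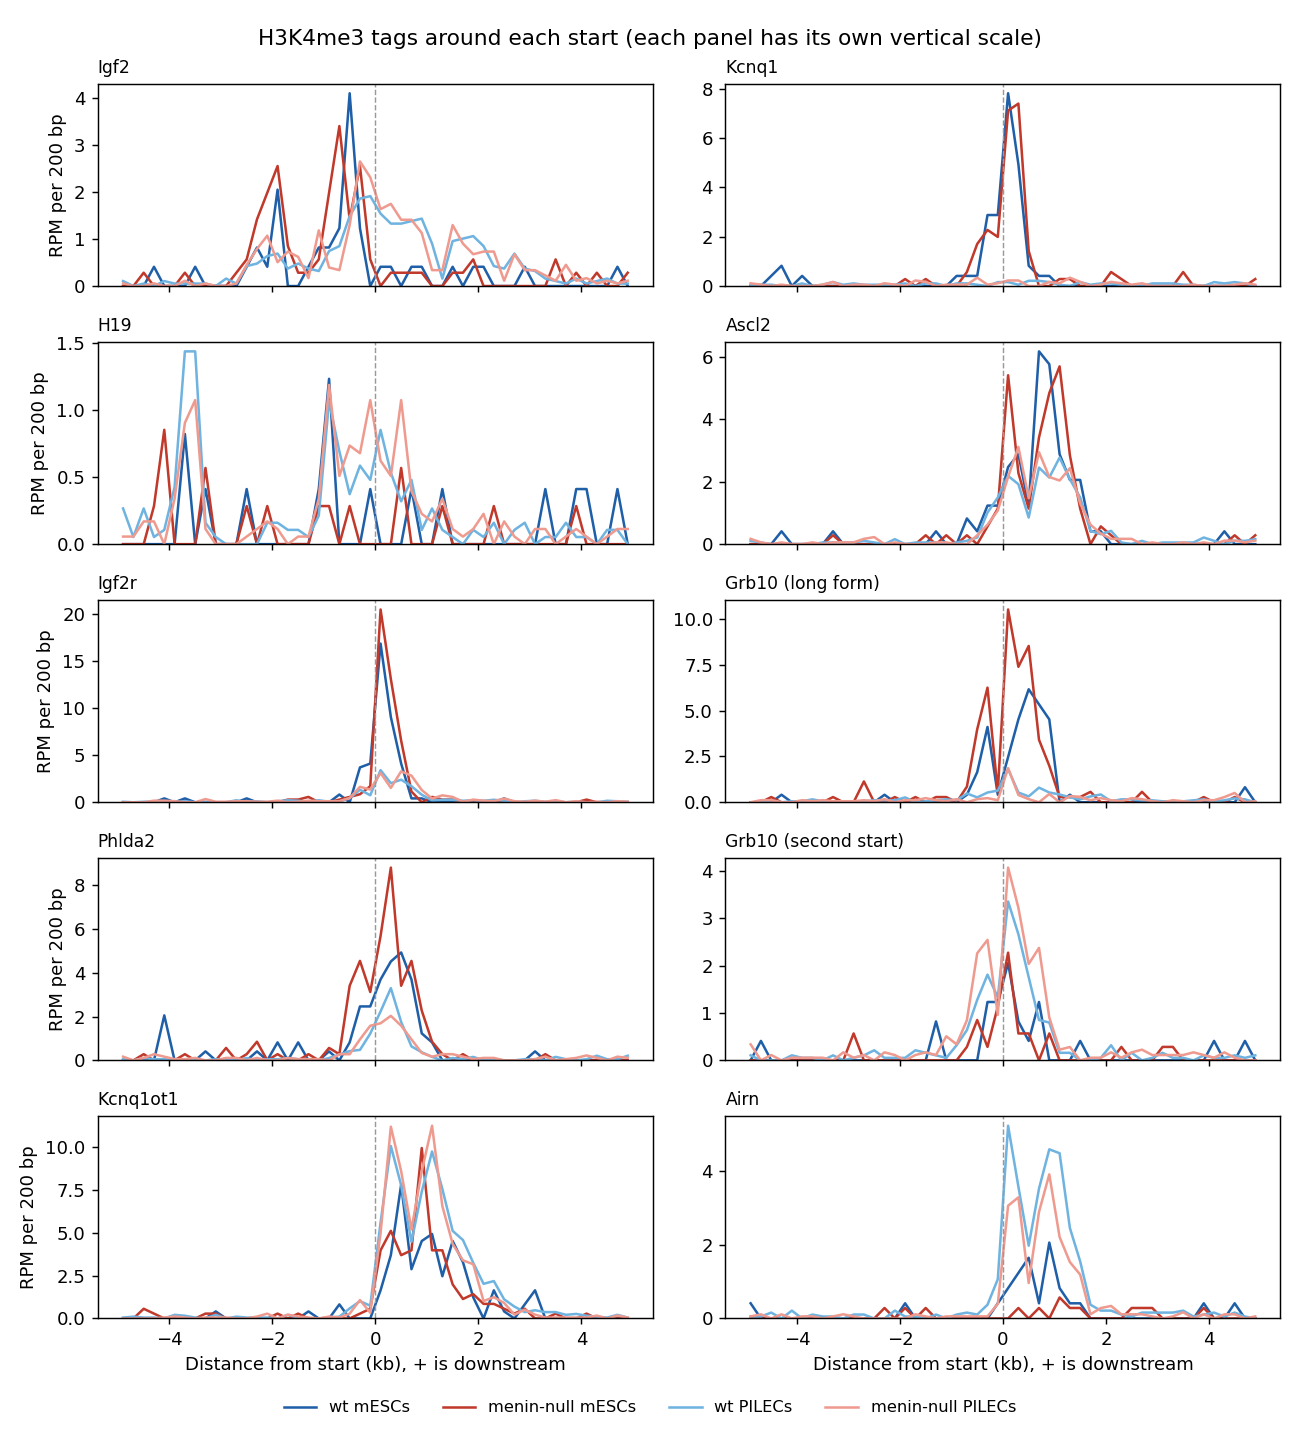
H3K4me3 RPM in bins of 200 bp from 5 kb upstream to 5 kb downstream of each start, with 1 line for each of the 4 libraries and a vertical scale of its own in each panel. The Igf2 tags of mESCs lie upstream of the start while those of PILECs extend downstream, H19 has tags at and upstream of its start in PILECs, Kcnq1 and the first Grb10 start are low in PILECs, and nearly all tags of Kcnq1ot1 and Airn lie downstream of the start.

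Igf2r encodes the receptor that takes up IGF2 and sends it to the lysosome, and is expressed from the maternal copy. Its start (chr17:12962530, minus strand, exon 1 of 48) had 96 tags in wt mESCs and 157 without menin, and 244 tags in wt PILECs and 278 without menin. The levels were 39.5 RPM (32.0 to 48.2), 44.6 RPM (37.9 to 52.2), 13 RPM (11.4 to 14.7) and 15.7 RPM (13.9 to 17.7), and both mESC levels lay above both PILEC levels without overlap of the intervals. Over input, Igf2r was marked 24.0-fold (11.2 to 61.2) and 18.6-fold (9.54 to 41.4) in the 2 mESC libraries, wt first, and 11.8-fold (7.53 to 19.4) and 12.9-fold (8.38 to 21.0) in the 2 PILEC libraries, and these intervals overlapped between the stages. The other 2 annotated Igf2r starts had at most 20 tags in any library and were not marked.

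Airn starts in intron 2 of Igf2r, on the other strand (chr17:12934264). It had 16 tags in wt mESCs against 2 in menin-null mESCs, and 388 tags in wt PILECs against 260 without menin. The levels were 6.58 RPM (3.76 to 10.7), 0.569 RPM (0.0689 to 2.05), 20.7 RPM (18.7 to 22.8) and 14.7 RPM (13 to 16.6). Airn was marked 3.49-fold (1.41 to 9.43) over input in wt mESCs and lay at 0.304-fold (0.0308 to 1.6) of input in menin-null mESCs. In PILECs it was marked in both genotypes, at 24.6-fold and 17.8-fold. Of the Airn tags within 1 kb in PILECs, 91.2% (88.0% to 93.9%) in wt and 95.8% (92.6% to 97.9%) in menin-null cells lay downstream of its start.

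Kcnq1ot1 starts in intron 11 of Kcnq1 on the opposite strand (chr7:150482452). Its counts were 52 and 97 in wt and menin-null mESCs and 710 and 717 in the wt and menin-null PILECs, or 21.4 RPM (16 to 28.0), 27.6 RPM (22.4 to 33.6), 37.8 RPM (35.1 to 40.7) and 40.5 RPM (37.6 to 43.6). It had the highest level of the 8 genes in both PILEC libraries, with intervals that did not overlap those of any other. The mark lay on one side of the start: 96.2% (86.8% to 99.5%), 96.9% (91.2% to 99.4%), 93.4% (91.3% to 95.1%) and 95.4% (93.6% to 96.8%) of the tags within 1 kb were downstream, and 568 and 508 more tags lay 1 to 2 kb downstream in the PILECs. In the inputs 76.9% (46.2% to 95%) and 50% (6.76% to 93.2%) lay downstream in mESCs, with intervals that overlapped those of the mark, and 42.9% (21.8% to 66.0%) and 36.8% (16.3% to 61.6%) in PILECs, with intervals that did not. Among the main starts of the 8 genes this one-sided placing was otherwise nearest at Igf2r in menin-null mESCs, at 92.4% (87.0% to 96.0%).

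Kcnq1, a potassium channel subunit, is the gene that Kcnq1ot1 lies in. Its start (chr7:150293159, plus strand) had 52 tags in wt and 79 in menin-null mESCs against 23 and 22 in the PILECs. The levels fell from 21.4 RPM (16 to 28.0) and 22.5 RPM (17.8 to 28.0) in mESCs to 1.23 RPM (0.777 to 1.84) and 1.24 RPM (0.780 to 1.88) in PILECs. In PILECs it stood at 0.896-fold (0.488 to 1.63) and 0.980-fold (0.521 to 1.84) of input, so no mark was detectable at this depth, while in mESCs it was 8.26-fold and 9.35-fold over input.

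Phlda2 limits the growth of the placenta, and Ascl2 is a transcription factor that the placenta needs. At Phlda2 (chr7:150688446) the tags were 59 in wt and 129 in menin-null mESCs and 203 in wt and 172 in menin-null PILECs, or 24.3 RPM (18.5 to 31.3), 36.7 RPM (30.6 to 43.6), 10.8 RPM (9.38 to 12.4) and 9.73 RPM (8.33 to 11.3). Both mESC levels lay above both PILEC levels in RPM. Over input Phlda2 was at 7.93-fold (4.30 to 15.8) in mESCs and 13.7-fold (8.12 to 24.9) in PILECs of the wt genotype, and at 45.8-fold (15.3 to 225) on 3 input tags and 14.7-fold (8.20 to 29.0) without menin, with overlapping intervals in each genotype. At Ascl2 (chr7:150155169) the tags were 55, 67, 233 and 244 in the same order, or 22.6 RPM (17.0 to 29.4), 19.1 RPM (14.8 to 24.2), 12.4 RPM (10.9 to 14.1) and 13.8 RPM (12.1 to 15.6). The mESC and PILEC intervals of Ascl2 overlapped in menin-null cells and did not overlap in wt cells. Over input the order of the stages turned, with Ascl2 at 8.73-fold (4.52 to 18.5) in mESCs and 15.7-fold (9.34 to 28.6) in PILECs of wt cells, where the intervals overlapped, and at 4.76-fold (2.69 to 8.97) and 19.2-fold (11 to 36.6) without menin, where they did not.

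Grb10 encodes an adaptor that binds the insulin and insulin-like growth factor receptors and restrains their signal. Of its 8 separate annotated starts, 2 carried most tags. The first (chr11:11937404, exon 1 of the long transcripts) had 72 tags in wt and 153 in menin-null mESCs, and 113 and 63 in the PILECs, or 29.6 RPM (23.2 to 37.3), 43.5 RPM (36.9 to 51.0), 6.02 RPM (4.96 to 7.24) and 3.56 RPM (2.74 to 4.56). The second (chr11:11926327, inside intron 1 of the long transcripts and exon 1 of a short one) had 17, 23, 278 and 346 tags, or 6.99 RPM (4.07 to 11.2), 6.54 RPM (4.15 to 9.81), 14.8 RPM (13.1 to 16.7) and 19.6 RPM (17.6 to 21.7), and was not marked over input in wt mESCs at 2.12-fold (0.984 to 4.65). The level of the first start in RPM was thus lower in PILECs than in mESCs and that of the second start higher, in both genotypes. Over input the first start was not lower in wt PILECs, at 9.67-fold (5.32 to 19) in mESCs and 10.4-fold (5.60 to 21.4) in PILECs, while without menin it was at 18.1-fold (9.29 to 40.3) and 4.04-fold (2.30 to 7.48). In PILECs the genotypes also stood in opposite order in RPM at these starts, without overlap of the intervals. Over input the intervals of the genotypes overlapped at each of these starts in PILECs. The second start was at 9.39-fold (6.43 to 14.2) in wt and 13.6-fold (9.15 to 21.2) in menin-null PILECs.

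**Figure D2:**
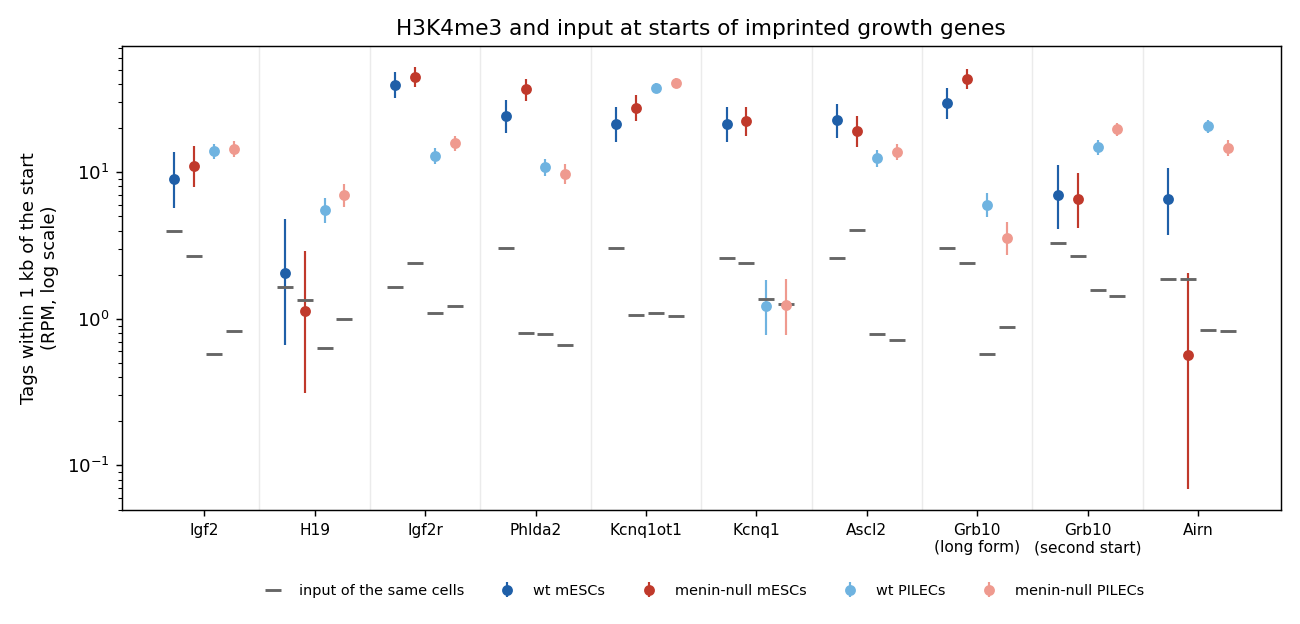
RPM within 1 kb of each start on a log scale, with exact 95% counting intervals, for the 4 H3K4me3 libraries (points) and the input of the same cells (grey dashes). Igf2r, Phlda2, Kcnq1 and the first Grb10 start are lower in PILECs than in mESCs, and Kcnq1 reaches the input level in PILECs. H19 cannot be told from input in mESCs on few tags, and Airn is not above its input in menin-null mESCs.

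By the rule that a gene is marked where its H3K4me3 level is at least 2-fold over input and the interval of that ratio lies above 1, 7 of the 8 genes were marked in each library. The background was 55.7% of all genes in the wt mESC library and 55.8% in the menin-null one, and 55.9% and 55.3% in the PILEC libraries. H19 was the exception in both kinds of mESCs and Kcnq1 in both kinds of PILECs. In wt mESCs the order of the levels was Igf2r, Grb10, Phlda2, Ascl2, Kcnq1 and Kcnq1ot1, whose neighbours could not be told apart, then Igf2, then H19, each below the one before it beyond counting error. In menin-null mESCs the order from Igf2r down to Igf2 again held no neighbours that differed beyond their intervals, and H19 lay below them. In wt PILECs Kcnq1ot1 stood first, Igf2, Igf2r, Ascl2 and Phlda2 followed without a gap beyond counting error between neighbours, and Kcnq1 stood last, below Grb10 and H19. In menin-null PILECs Kcnq1ot1 again stood first, followed by Igf2r, Igf2 and Ascl2, then Phlda2 and H19, then Grb10, then Kcnq1, with gaps beyond counting error between these groups.

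Whether H3K4me3 at these genes differed without menin was asked first in mESCs. At the main starts, no gene of the 7 with at least 10 tags in both libraries together was 2-fold lower or higher in menin-null than in wt mESCs, beside 3.33% of 16179 genes (2.06% lower and 1.27% higher). The log2 ratios, with 1 tag added to each count, were 0.27 (-0.50 to 1.12) for Igf2, 0.17 (-0.20 to 0.56) for Igf2r, 0.35 (-0.13 to 0.88) for Kcnq1ot1, 0.06 (-0.45 to 0.61) for Kcnq1 and -0.25 (-0.78 to 0.29) for Ascl2, none distinguishable from 0 at this depth. Phlda2 at 0.58 (0.14 to 1.07) and Grb10 at 0.54 (0.14 to 0.98) had intervals above 0, as did 24.3% of all genes tested, and 0 of the 8 had one below 0, as did 2.07%. The median of the 7 genes was that of Igf2, 0.27, and that of all genes with at least 50 tags stood at 0.24, and relative to it Phlda2 was at 0.34 and Grb10 at 0.30. Within 0.5 kb of the start Grb10 reached 1.08. H19 had 9 tags in all, too few for the rule.

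Airn, which is not one of the 8, had 16 tags in wt against 2 in menin-null mESCs and a log2 ratio of -3.03 (-6.70 to -1.44). A ratio as low was found at 0.0247% of the genes tested. Its input had 8 tags in wt and 7 in menin-null mESCs. Under the alternatives of counting the ratio ranged from -4.17 to -1.82. Airn made up 14.3% (8.39% to 22.2%) of the tags of Airn and Igf2r together in wt mESCs and 1.26% (0.153% to 4.47%) in menin-null mESCs, a difference that does not depend on the scaling of the libraries.

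In PILECs again 0 of 8 genes were 2-fold lower or higher in menin-null than in wt cells, beside 5.67% of 24041 genes (2.45% lower and 3.22% higher). Igf2 had a log2 ratio of 0.05 (-0.21 to 0.30), H19 of 0.35 (-0.03 to 0.75), Phlda2 of -0.15 (-0.45 to 0.15), Kcnq1ot1 of 0.10 (-0.05 to 0.25), Kcnq1 of 0.02 (-0.89 to 0.93) and Ascl2 of 0.15 (-0.11 to 0.42). These 6 intervals leave out 2-fold in either direction, narrowly at Kcnq1, which was at the input level in both libraries. Igf2r at 0.27 (0.02 to 0.53) had an interval above 0, as did 5.08% of genes, and the first start of Grb10 at -0.75 (-1.22 to -0.30) one below 0, as did 20.1%. The median of the 8 genes was 0.07 and that of all genes -0.09. With input tags subtracted, the first start of Grb10 was past 2-fold at -1.01.

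At Grb10 and at Airn the difference in PILECs can be read within a library. The second start of Grb10 held 71.1% (66.3% to 75.5%) of the tags of both starts in wt PILECs and 84.6% (80.7% to 88.0%) in menin-null PILECs, and its own log2 ratio was 0.40 (0.17 to 0.64). In the PILEC inputs the same share was 73.2% (57.1% to 85.8%) and 61.9% (45.6% to 76.4%). Airn had a log2 ratio of -0.49 (-0.72 to -0.26) in PILECs, the same direction as in mESCs, and its share with Igf2r was 61.4% (57.5% to 65.2%) in wt and 48.3% (44.0% to 52.6%) in menin-null cells. The control region of H19 stood at -0.49 (-1.02 to 0.02).

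**Figure D3:**
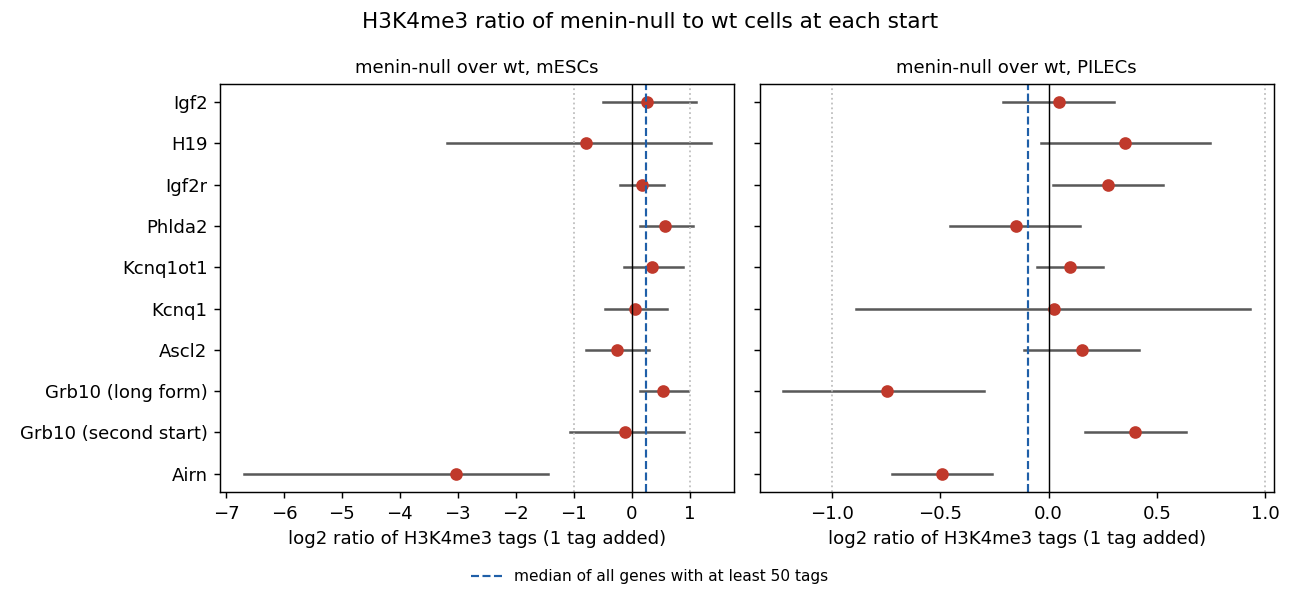
Log2 ratio of H3K4me3 tags in menin-null over wt cells at each start (points) with its exact 95% counting interval (lines), for mESCs and for PILECs. The dashed line is the median of all genes with at least 50 tags, 0.24 in mESCs and -0.09 in PILECs, and the dotted lines mark 2-fold, and no point of the 8 genes passes a dotted line in either panel while Airn passes one in mESCs.

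The stages were compared in each genotype, in libraries that also entered the comparisons of the genotypes. In wt cells 4 genes were 2-fold lower in PILECs than in mESCs and 1 was 2-fold higher, beside 20.4% of 21262 genes lower and 6.66% higher, or 27.0% in all. In menin-null cells the genes were the same, 4 lower and 1 higher, beside 22.7% of 21642 genes lower and 7.82% higher, or 30.5% in all. Intervals lay below 0 for 5 genes and above 0 for 2 in each genotype, beside 24.6% and 18.8% of all genes in wt cells and 39.1% and 12.2% in menin-null cells. Kcnq1 had log2 ratios of -4.09 (-4.90 to -3.39) in wt and -4.13 (-4.93 to -3.48) in menin-null cells, and ratios as low were found at 0.376% and 0.453% of genes. The first start of Grb10 stood at -2.31 (-2.74 to -1.85) and -3.60 (-4.06 to -3.18), Igf2r at -1.61 (-1.95 to -1.25) and -1.51 (-1.79 to -1.21), and Phlda2 at -1.18 (-1.59 to -0.72) and -1.92 (-2.25 to -1.57). H19 was the gene that was higher, at 1.17 (0.15 to 3.07) on 5 against 103 tags in wt cells and 2.31 (1.23 to 4.52) on 4 against 124 tags in menin-null cells. At the H19 start near the 5′ end of the gene, the ratio was 0.80 (-0.33 to 3.01) in wt cells. With 1 tag added it was thus not past 2-fold there, on 4 against 66 tags, and its interval included 0. The levels without the added tag were 1.64 RPM in wt mESCs and 3.52 RPM in wt PILECs, so this call depends on that tag. In menin-null cells that start was at 1.52 (0.40 to 3.73). These ratios are of RPM, and input in the same windows was lower in PILECs too. In wt cells it stood at 3.06 against 0.578 RPM at the first Grb10 start and 3.06 against 0.789 RPM at Phlda2. Over input, the intervals of the stages overlapped for Igf2r and Phlda2 in both genotypes and for the first Grb10 start in wt cells. They did not overlap for Kcnq1 and the main H19 start, or for the first Grb10 start in menin-null cells.

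The other 3 genes stayed within 2-fold in RPM. Kcnq1ot1 was higher in PILECs at 0.80 (0.42 to 1.26) and 0.54 (0.25 to 0.88), Igf2 stood at 0.56 (-0.01 to 1.32) and 0.34 (-0.12 to 0.90), and Ascl2 at -0.89 (-1.29 to -0.41) and -0.48 (-0.86 to -0.05). Within 0.5 kb of the start Igf2 was past 2-fold, at 1.34 and 1.3. Over input Igf2 rose from 2.26-fold (1.15 to 4.53) to 24.0-fold (13.2 to 48.7) in wt cells. In menin-null cells it rose from 4.15-fold (2.04 to 9.33) to 17.4-fold (10.3 to 31.5), again without overlap. Kcnq1ot1 rose over input from 6.99-fold (3.75 to 14.0) to 34.2-fold (22.2 to 55.7) in wt cells. Without menin its intervals overlapped, at 25.8-fold (9.77 to 96.7) and 38.7-fold (24.6 to 64.6). The median log2 ratio of the 8 genes was -1.03 in wt and -0.995 in menin-null cells. That of all genes was 0.00 and -0.31, so relative to it Ascl2 in menin-null cells was at -0.17. The input itself differed between the stages along distal chromosome 7, with a log2 ratio of -0.43 (-0.49 to -0.37) in wt and -0.35 (-0.41 to -0.29) in menin-null cells from chr7:149568572 to chr7:150688446, and of -0.85 and -0.62 within 50 kb of Kcnq1. Divided by the input ratio within 50 kb, Kcnq1 stood at -3.24 in wt cells, Phlda2 at -0.47 in wt and -1.34 in menin-null cells, and Ascl2 at -0.34 and 0.18, so that the direction of Ascl2 in menin-null cells turned, the call of Phlda2 in wt cells was lost and Kcnq1ot1 was past 2-fold there at 1.07. Between the genotypes the input of distal chromosome 7 differed by -0.06 (-0.14 to 0.02) in mESCs and 0.02 (-0.02 to 0.06) in PILECs.

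Paired starts moved apart between the stages within each library. The second start of Grb10 held 19.1% (11.5% to 28.8%) of the tags of both starts in wt mESCs and 13.1% (8.47% to 19%) in menin-null mESCs, against 71.1% and 84.6% in PILECs. Airn rose from 14.3% and 1.26% of its pair with Igf2r to 61.4% and 48.3%. Kcnq1ot1 held 50% (40.0% to 60.0%) and 55.1% (47.4% to 62.6%) of its pair with Kcnq1 in mESCs and 96.9% (95.3% to 98.0%) and 97.0% (95.5% to 98.1%) in PILECs. In each of these 3 pairs the share given was higher in PILECs, in both genotypes and without overlap of the intervals. In the inputs these shares ranged from 30.8% to 73.2%. In PILECs the intervals overlapped those of the input for Grb10 in wt cells and for Airn in both genotypes, where the input share was 43.2% (27.1% to 60.5%) in wt and 40.5% (24.8% to 57.9%) in menin-null cells, and did not for Grb10 in menin-null cells and Kcnq1ot1 in both. Over input the 2 Grb10 starts of wt PILECs had ratios with overlapping intervals, with the second at 9.39-fold (6.43 to 14.2), while in menin-null PILECs the second stood above the first, at 13.6-fold (9.15 to 21.2).

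**Figure D4:**
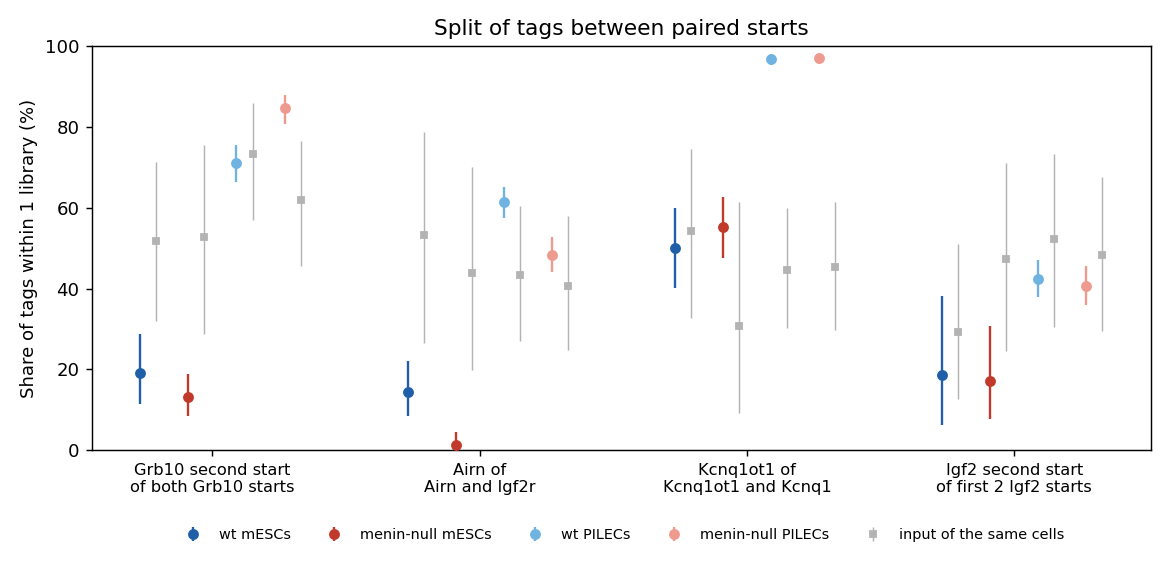
Share of the start named first under each group among the tags of 2 paired starts in each library, with exact 95% binomial intervals, for the H3K4me3 libraries (coloured points) and their inputs (grey squares). The share of the second Grb10 start, of Airn and of Kcnq1ot1 is higher in both PILEC libraries than in both mESC libraries, and the windows of the 2 Igf2 starts overlap.

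Around the 8 genes, the lists of neighbours were counted for the same comparisons. Among the imprinted neighbours, Igf2os has a window that overlaps that of the main Igf2 start. Of 11 imprinted neighbours on chromosome 7, 9 had at least 10 tags in mESCs, of which 0 were 2-fold lower and 1 higher in menin-null cells (Tspan32, 10 tags against 2, interval including 0), beside 2.06% and 1.27% of all genes. In PILECs 0 of 11 passed, beside 5.67% of all genes. Their median log2 ratios were 0.42 and 0.08, beside 0.24 and -0.09 over all genes with at least 50 tags. In the stage comparisons 3 were lower and 0 higher in wt cells, and 5 lower and 2 higher in menin-null cells, with medians of -0.36 and -0.57 beside 0.00 and -0.31. The shares of all genes were 20.4% lower and 6.66% higher in wt cells and 22.7% lower and 7.82% higher in menin-null cells. Cdkn1c, an inhibitor of the cell cycle that Kcnq1ot1 also silences, was at 13.2 RPM in wt mESCs and fell to 6.39 RPM in wt PILECs, with a ratio on the log2 scale of -1.07 (-1.61 to -0.43), and at -1.25 (-1.67 to -0.79) in menin-null cells. In menin-null cells Tspan32 was at -1.98 and Th at -1.56 on 9 to 16 tags per library, and Osbpl5 at 1.01 (0.53 to 1.61). Of 10 chromosome 7 neighbours not known as imprinted, 5 had at least 10 tags in mESCs, and none of these and none of the 10 in PILECs passed between genotypes, beside the same shares of all genes. Between the stages 2 were lower and 2 higher in wt cells and 0 lower and 2 higher in menin-null cells, with medians of -0.03 and -0.18. Nadsyn1 was at 1.10 (0.65 to 1.67) in wt PILECs over wt mESCs, where Tnni2 was at -2.46 on 6 against 4 tags. The 2 higher in menin-null cells were Tnnt3, on 16 against 0 tags, and Tnni2, on 12 against 0. Both intervals included 0.

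Of 14 neighbours of Igf2r and Grb10, 10 had at least 10 tags in mESCs, of which 2 were lower in menin-null cells, beside 2.06% of all genes. These were Airn and Ddc, the latter with 12 tags against 26 and a log2 ratio of -1.59 (-2.77 to -0.61). Ddc, which encodes aromatic L-amino acid decarboxylase, lies next to Grb10. In PILECs Mas1 was higher in menin-null cells, at 1.33 on 18 tags against 7. Between the stages 4 of 13 were lower and 1 higher in wt cells, beside 20.4% and 6.66% of all genes, and 5 of 14 lower and 1 higher in menin-null cells, beside 22.7% and 7.82%, with medians of -0.63 and -0.37, and the higher gene was Airn, at 1.57 (0.93 to 2.47) and 4.11 (2.83 to 7.75). Slc22a3, a cation transporter that Airn also silences, was at -3.41 (-4.34 to -2.55) between the stages in wt cells and at -4.47 (-5.66 to -3.61) in menin-null cells. Ikzf1 was at -1.65 (-1.98 to -1.29) and -2.20 (-2.52 to -1.89), and in menin-null cells Cobl was at -1.75 (-2.01 to -1.5) and Sod2 at -1.06 (-1.27 to -0.84). Ddc was lower in PILECs at -3.24 (-4.16 to -2.37) and -1.57 (-2.61 to -0.37).

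The insulin-like growth factor pathway was represented by 20 genes, of which 19 had at least 10 tags in mESCs. None was 2-fold lower or higher between genotypes in either stage, beside 3.33% of all genes in mESCs and 5.67% in PILECs. In mESCs 9 had an interval above 0 and 0 one below, beside 24.3% and 2.07% of all genes, with a median log2 ratio of 0.33 beside the 0.24 of all genes, and in PILECs 7 had one below 0 and 2 one above, beside 20.1% and 5.08%, with a median of -0.12 beside -0.09. Igf2bp1, which binds the Igf2 mRNA, had the lowest ratio of the 20 in PILECs, at -0.91 (-1.05 to -0.77). Between the stages in wt cells, where 20.4% of all genes were lower and 6.66% higher, 2 were lower, Igfbp6 at -3.34 (-4.57 to -2.19) and Igfbp7 at -1.09 (-1.49 to -0.64), and 2 higher. One of these was Igfbp1, with 0 tags in wt mESCs, and the other Igf1, a further ligand of the pathway, at 1.46 (0.37 to 3.67) on 4 against 105 tags. In menin-null cells 7 of 20 were lower and 2 higher, beside 22.7% and 7.82% of all genes, with Igfbp6 at -2.22, Igfbp7 at -1.73, Foxo1 at -1.41, Igf2bp1 at -1.22 and Igf2bp3 at -1.21 the lowest, Igf1 at 1.19 (0.31 to 2.59) and Igfbp5 at 1.57 (1.15 to 2.09).

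The genes whose levels over the 4 H3K4me3 libraries were nearest to those of a member, by distance on the log2 RPM scale with 1 tag added, were Enox2 (distance 0.150), Rsl1 (0.178) and Chm (0.201) for Igf2. For H19 they were further off, Slc2a6 (0.523), Camk2a (0.665) and Trim21 (0.674). For Igf2r they were Gm10565 and Tmem51, which share 1 window count and so 1 distance (0.169), and Chchd10 (0.189). The distances are a description of levels only.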

How the data were processed

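ChIP-Seq reads of 36 bp were aligned by the authors to mm9, and the deposited files list 1 line per read aligned at a unique place (tag), with its position, strand and an alignment score; the score column, as deposited, was not used, and the tag positions carry no normalization. The aligner is not given in the sources used here. The study's methods state at most 2 mismatches, and 1.04% to 1.81% of the tags of a library held more. Here each tag was placed at the centre of its fragment, taken as 250 bp long, and counted within 1 kb of each start. Levels are counts per 1000000 tags of a library (RPM). Starts came from GENCODE vM1 (75544 distinct starts), and that of Kcnq1ot1 from RefSeq, matched to the genome. A gene was represented by the start with the most H3K4me3 RPM over the libraries, and further starts at least 1 kb away were described separately. Repeated tags (4.17% to 11.5% of the H3K4me3 libraries) were kept.

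Levels have exact Poisson intervals, ratios exact conditional binomial and shares exact Clopper-Pearson intervals, all at 95%. A gene was called at 2-fold where both libraries together held at least 10 tags, with 1 tag added to each count. There is no test across conditions. Python 3.11.15, numpy 2.4.6, pandas 2.3.3, scipy 1.17.1, matplotlib 3.10.9 and samtools 1.23.1 were used, and the counting was tested on simulated data. The genes, lists and start rules were chosen with earlier results of these data known. The genes named from the lists were those past 2-fold with an interval that leaves out 0, at most 5 per list and direction. Tspan32 in mESCs, Tnnt3 and Tnni2 in menin-null cells, Igf2bp1 in PILECs, Igfbp1 and the Men1 exons were named after their values were seen. Some genes of the lists that met this rule are not reported here. Expression data were not analysed here.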

Additional observations from a re-analysis of the deposited data

Results flagged for a closer look

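In RPM, the ratio of the first start of Grb10 had opposite signs in the 2 stages under the same contrast. On the log2 scale, menin-null cells stood against wt cells at 0.54 (0.14 to 0.98) in mESCs, with 72 tags in wt and 153 in menin-null cells, and -0.75 (-1.22 to -0.30) in PILECs, with 113 and 63 tags. Relative to the median of all genes the values were 0.30 and -0.65. Each stage had 1 library per genotype, so the difference between the stages was not tested.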

How the results depend on the processing

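Counts of genes past 2-fold stayed within 1.5 times the reported count in 52 of 56 alternatives, and the counts marked over input in 32 of 32. The exceptions rose from 0 to 1 (Grb10) within 0.5 kb of the start in mESCs, with input tags subtracted in PILECs and at a fold of 1.5 in PILECs, and fell from 5 to 3 at a fold of 3 between wt stages. Of 396 log2 ratios, Airn and the second Grb10 start included, 22 left their counting interval, 7 of them within 0.5 kb. The Ascl2 ratio given next also left its interval and is not among the 22. Among the ratios whose interval left out 0, 1 changed sign, Ascl2 in menin-null PILECs over mESCs, from -0.48 to 0.18 when divided by the input ratio within 50 kb. Some ratios whose interval included 0 changed sign too, the furthest being Igf2 with the 5′ end of the gene as start, from 0.27 to -2.53 (0 against 3 tags) between genotypes in mESCs and from 0.56 to -1.63 between wt stages. Of 60 shares between paired starts, 11 left their interval, all with a window of 0.5 or 2 kb. Alternatives for Airn, the second Grb10 start and the shares were chosen after seeing the data. Centred on the median of all genes, the share of all 2-fold calls that were lower went from 61.9% to 88.1% between genotypes in mESCs, from 43.2% to 29.4% in PILECs, from 75.4% to 75.5% between wt stages and from 74.4% to 58.4% between menin-null stages. With the 5′ end of the gene as start, Igf2 was not marked in any library and Grb10 not in wt mESCs and menin-null PILECs. No paired analysis was possible because each group had 1 library, and leaving one out was not possible for the same reason. The mESC libraries, with 22 and 39 tags at Igf2 and 5 and 4 at H19, limit what could be detected there.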
